A study of Mus musculus with 8 samples.

Results

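HCN channels open when a neuron is hyperpolarized and carry the mixed sodium and potassium current known as Ih. Transcripts of the channel subunits Hcn2, Hcn3 and Hcn4 and of their accessory subunit TRIP8b, whose gene is Pex5l, were compared between the dorsal and the ventral medial entorhinal cortex (MEC) of the mouse. The genes were chosen by name, as channel subunits and the protein that binds them, with earlier results of these data known. They make up 4 of the 38553 genes in the deposited table. The filter on low expression, an average FPKM of 1 or more over all libraries, was passed by 3 of the 4, which were tested among 13674 genes. The fourth, Hcn4, lay below it and was tested in a fit without the filter. Neither Hcn2, Hcn3 nor Pex5l was called different between the regions by the edgeR criterion used here, which called 6.54% of the genes tested. Hcn2 and Pex5l were lower in each of the 4 ventral libraries than in any dorsal library, by 24.1% and 10.4% of the dorsal mean. Of all genes tested, 11.1% did not overlap in either direction, and 6.17% did not overlap and were higher dorsally. Hcn3 and Hcn4 overlapped between the regions.

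An HCN channel is built from subunits of a small family, each with a cytoplasmic domain that binds cAMP, which shifts the opening of the channel to less negative voltages. TRIP8b binds the end of the channel and the cAMP-binding domain, sets how many channels reach the dendritic membrane and opposes the action of cAMP. In stellate cells of the MEC, Ih contributes to the resonance and the input resistance of the cell, and its properties differ along the dorsoventral axis, along which the scale of grid cell firing also changes. The comparison of dorsal with ventral tissue asks whether transcript levels of the channel genes differ along that axis.

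The 13 mice were 8-week-old males of strain C57BL/6JolaHsd, with no genetic change and no drug named in the labels. Each brain gave 1 sagittal slice of 400 µm through the MEC of the right side, and the dorsal tissue was separated from the ventral tissue under a microscope. Mice were pooled in groups of 3 or 4, so that a library stands for several animals, and 4 dorsal and 4 ventral libraries resulted. Both regions came from the same groups of mice, but which ventral library shares its mice with which dorsal library is not given, and the tests treat the 8 libraries as independent. RNA integrity numbers lay between 7.1 and 8.5. The cDNA was amplified from 120 ng of RNA before sequencing. The libraries held between 10780902 and 15359782 fragments as estimated by the authors' software. P-values measure the spread between pools and not between single mice. The tissue was bulk cortex, so that fewer cells of a type and less RNA per cell cannot be told apart.

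In 4 of 8 columns of the deposited FPKM matrix the header disagrees with the region used here. Regions were taken from the 2 conditions under which the authors' Cuffdiff run lists the same values, where each column equals the value of 1 library for all 38553 genes within 0.01%. The conditions carry no region name in that run, and the first was taken as dorsal because the study lists genes higher in it as D>V. Libraries are numbered 1 to 4 within a region in the order of that run, and a library was not matched to a single sample. The choice matters for every comparison. Under the regions in the headers 2 genes were called in the whole table, against 894 under the conditions used here.

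Expression is given as FPKM, fragments per unit of exon length and of sequencing depth, which sets genes of different length on a common scale. Effects of the cDNA amplification on single genes were not examined, so that ratios of levels between genes are approximate. Differences are log2 fold changes of ventral over dorsal, log2(V/D), fitted with edgeR to the fragment numbers, so that a negative value means higher dorsally (D>V) and a positive value higher ventrally (V>D). The criterion for a call was an adjusted p (Benjamini-Hochberg, over all genes tested) under 0.05 with a difference of at least 1.2-fold (20%). By this rule 3.49% of the genes tested were called D>V, 3.05% V>D and 6.54% in either direction. The median log2(V/D) of all genes tested was 0.003.

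The C-terminal end of the channel subunits is among the parts that TRIP8b holds. The last 33 coding bases of each are shown, with the stop codon, since they mark where the subunits meet their accessory protein. They come from GENCODE M21 transcripts on GRCm38, and the last 3 codons before the stop are in capitals.
Hcn2: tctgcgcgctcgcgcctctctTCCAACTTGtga
Hcn3: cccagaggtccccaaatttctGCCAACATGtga
Hcn4: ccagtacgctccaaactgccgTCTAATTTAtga
The Hcn2 stretch lies at chr10:79735508-79735540 on the plus strand, that of Hcn3 at chr3:89147599-89147631 on the minus strand and that of Hcn4 at chr9:58860731-58860763 on the plus strand. Compared base by base from the stop codon, Hcn2 and Hcn4 were identical at 19 of 33 positions, Hcn2 and Hcn3 at 18 and Hcn3 and Hcn4 at 17. These counts include the stop codon, TGA in each gene. They compare bases and not amino acids, so that they do not rank how alike the protein ends are. By the genetic code the last 3 codons read serine, asparagine and leucine in both Hcn2 and Hcn4. In Hcn3 they read alanine, asparagine and methionine. The coding sequences differ in length, with 863 codons in the Hcn2 transcript, 779 in Hcn3 and 1201 in Hcn4.

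Hcn2 (ENSMUSG00000020331, chr10:79716634-79736108, plus strand) encodes a subunit that responds strongly to cAMP and is found in many neurons of the brain. Its FPKM was 3.01, 2.89, 2.81 and 2.84 in dorsal libraries 1 to 4 and 2.61, 1.68, 2.29 and 2.19 in ventral libraries 1 to 4. The dorsal libraries lay close together, the ventral libraries were spread out below them, and ventral library 2 was the lowest of all. The mean was 2.89 ± 0.0891 FPKM in dorsal and 2.19 ± 0.386 FPKM in ventral MEC (SD, n = 4 libraries each). The log2(V/D) was -0.38 with an SE of 0.130 and a 95% interval from -0.66 to -0.11. The adjusted p of edgeR's quasi-likelihood test was 0.0861 (unadjusted 0.00799), so that the difference was above the 20% threshold in size and did not pass the test.

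The position of Hcn2 among all genes can be read from the same fit. A lower log2(V/D) was found for 5.46% of the genes tested, and a smaller p for 9.28%. Over the 3 tested members, 0 were called by edgeR, 0 by DESeq2 and 0 by limma, and 2 had an unadjusted edgeR p under 0.05, as had 18.5% of all genes tested. For 2 of the 3 members no ventral FPKM reached the dorsal range, both being higher dorsally. Over all genes tested, 11.1% did not overlap in either direction and 6.17% did not overlap and were higher dorsally.

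**Figure D1:**
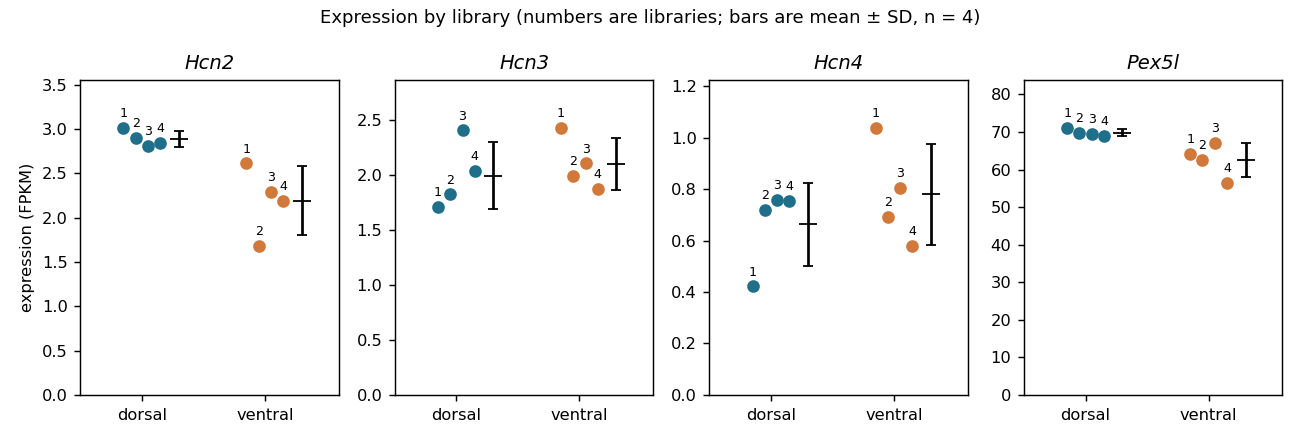
FPKM of Hcn2, Hcn3, Hcn4 and Pex5l on the y axis, each on its own linear scale from 0, in the 4 dorsal and the 4 ventral libraries, with library numbers beside the points and the mean ± SD to the right of each group. The dorsal points of Hcn2 and Pex5l lie in a narrow band above all ventral points, whereas the regions overlap for Hcn3 and Hcn4.

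The call for Hcn2 depended on single choices. Without ventral library 1, the ventral library nearest to the dorsal ones, the log2(V/D) was -0.48 and the gene was called (edgeR adjusted p = 0.0467), and without ventral library 2 it was -0.28. The number of fragments behind the gene lay between 81 and 171 per library, 1003 in all. Counting alone would give a coefficient of variation of about 8.93% between libraries. The measured coefficient of variation was 3.08% in dorsal MEC, below that value, and 17.6% in ventral MEC, above it. Over all alternatives the adjusted p lay between 0.0249 and 0.946, the lowest in a fit that took the order of the libraries in the Cuffdiff run as a block.

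Hcn3 (ENSMUSG00000028051, chr3:89146074-89160196, minus strand) encodes a subunit that responds little to cAMP. Its FPKM was 1.71, 1.82, 2.40 and 2.04 in dorsal libraries 1 to 4 and 2.42, 1.99, 2.10 and 1.87 in ventral libraries 1 to 4. The highest dorsal and the highest ventral library were almost level, and the regions overlapped over most of their range. The mean was 1.99 ± 0.305 FPKM dorsally and 2.10 ± 0.238 FPKM ventrally (SD, n = 4). The log2(V/D) was 0.02 (SE 0.133, 95% interval -0.26 to 0.30, edgeR adjusted p = 0.967). The lower bound lies within the 20% threshold and the upper bound just beyond it, so that the test does not show the regions to be equal. The exons of Hcn3 share 711 of 4154 bases with Pklr on the other strand, and Pklr had a mean FPKM of 0.00877. The authors' locus for Hcn3 runs past the lower end of the gene, down to chr3:89136142.

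Hcn4 (ENSMUSG00000032338, chr9:58823412-58863175, plus strand) encodes the subunit best known from pacemaker cells of the heart, which is also found in the thalamus. Its FPKM was 0.422, 0.721, 0.759 and 0.753 in the dorsal and 1.04, 0.693, 0.806 and 0.581 in the ventral libraries, in the order 1 to 4. Dorsal library 1 stood below the other dorsal libraries and ventral library 1 above all others, and the regions overlapped. The means were 0.664 ± 0.162 and 0.780 ± 0.196 FPKM (SD, n = 4). Between 22 and 71 fragments per library lay behind these values, for which counting alone gives a coefficient of variation of about 15.2%. In the fit with no FPKM filter, which called 6.44% of 14989 genes, the log2(V/D) was 0.25 (SE 0.218, 95% interval -0.21 to 0.70, edgeR adjusted p = 0.632). The upper part of the interval includes a difference as large as that of Hcn2, in the opposite direction. Without ventral library 1 the log2(V/D) was 0.07, and without dorsal library 1 it was 0.09.

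Pex5l (ENSMUSG00000027674, chr3:32949408-33143247, minus strand) encodes TRIP8b, which is spliced into many forms that raise or lower the surface level of the channels. The values used here sum over its transcripts, of which GENCODE M21 lists 12, so that shifts between forms are not seen. Its FPKM was 71.1, 69.7, 69.6 and 68.9 in dorsal libraries 1 to 4 and 64.1, 62.6, 67.2 and 56.5 in ventral libraries 1 to 4. Each ventral library lay below each dorsal library, and ventral library 4 was lowest. The mean was 69.8 ± 0.911 FPKM dorsally and 62.6 ± 4.50 FPKM ventrally (SD, n = 4). The log2(V/D) was -0.18 (SE 0.061, 95% interval -0.31 to -0.06), with an edgeR adjusted p of 0.0770 and an unadjusted p of 0.00679.

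Of the members, Pex5l was measured with the most fragments, 1854 to 3182 per library. Counting alone would give a coefficient of variation of about 1.98%, and the measured values were 1.30% in dorsal and 7.19% in ventral MEC. A lower log2(V/D) was found for 14.5% of the genes tested and a smaller p for 8.81%. DESeq2 gave an adjusted p of 0.0279 with a log2(V/D) of -0.19, which was below the 20% threshold, so that the gene was not called there either. The range of adjusted p over all alternatives was 0.0175 to 0.954. The exons of Pex5l share 340 of 8846 bases with the antisense gene Gm37459 and 24 with 4930419G24Rik, and reads from the 2 strands cannot be told apart here.

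**Figure D2:**
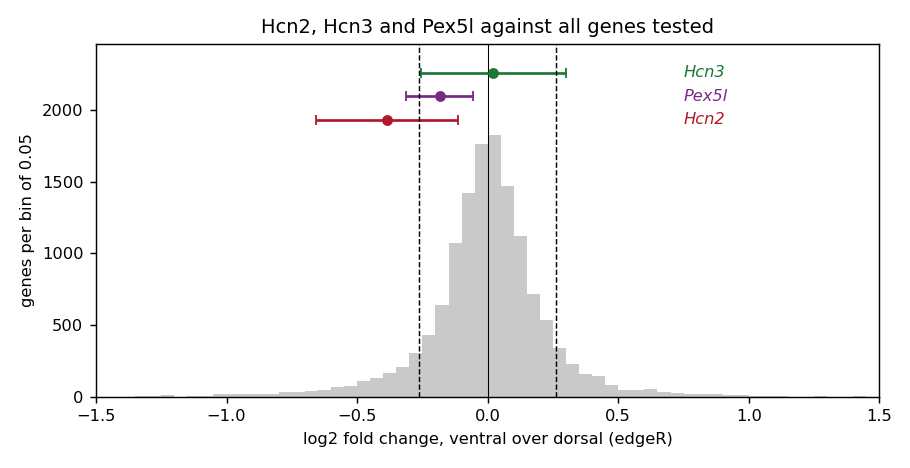
Histogram of log2(V/D) for the 13674 genes tested (grey, x axis limited to -1.5 to 1.5, y axis in genes per bin of 0.05), with the edgeR estimates and 95% intervals of Hcn2, Hcn3 and Pex5l above it and the 20% threshold as dashed lines. The interval of Hcn2 lies below 0 and crosses the threshold, that of Pex5l is narrower and nearer to 0, and that of Hcn3 spans 0.

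Pex5l had the highest level, and 5.80% of the genes tested lay above it. In FPKM it was 23.6 to 24.8 times as high as Hcn2 in the dorsal libraries and 24.5 to 37.3 times as high in the ventral libraries. Hcn2 itself had a level that 80.3% of genes exceeded. Hcn2 was 1.17 to 1.76 times as high as Hcn3 in dorsal and 0.847 to 1.17 times as high in ventral libraries, so that the dorsal order of Hcn2 above Hcn3 held in all 4 dorsal libraries and was turned in ventral library 2. Hcn3 was 2.53 to 4.04 times as high as Hcn4 in dorsal and 2.33 to 3.22 times as high in ventral libraries.

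Because a ratio within a library does not depend on the scaling between libraries, the make-up of the subunits was compared within each library, over Hcn2, Hcn3 and Hcn4 only. These 3 are not all of the HCN subunits, so that the values are shares of an incomplete sum and not of the whole channel pool. Hcn2 made up 58.6%, 53.3%, 47.1% and 50.5% of their summed FPKM in dorsal libraries 1 to 4 and 43.0%, 38.6%, 44.1% and 47.1% in ventral libraries 1 to 4. Dorsal library 3 and ventral library 4 met in the middle, and the other dorsal libraries were higher than every ventral library. The mean share was 52.3% ± 4.87 dorsally and 43.2% ± 3.55 ventrally (SD, n = 4), a difference of -9.16 percentage points (exact permutation test over libraries, two-sided p = 0.0571). The smallest p that 4 against 4 libraries allow is 0.0286. The share of Hcn3 was 35.8% ± 3.25 dorsally and 41.6% ± 2.67 ventrally (exact permutation p = 0.0571), and that of Hcn4 11.9% ± 2.47 and 15.3% ± 1.95 (exact permutation p = 0.114). The 3 shares sum to the whole and are not independent.

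**Figure D3:**
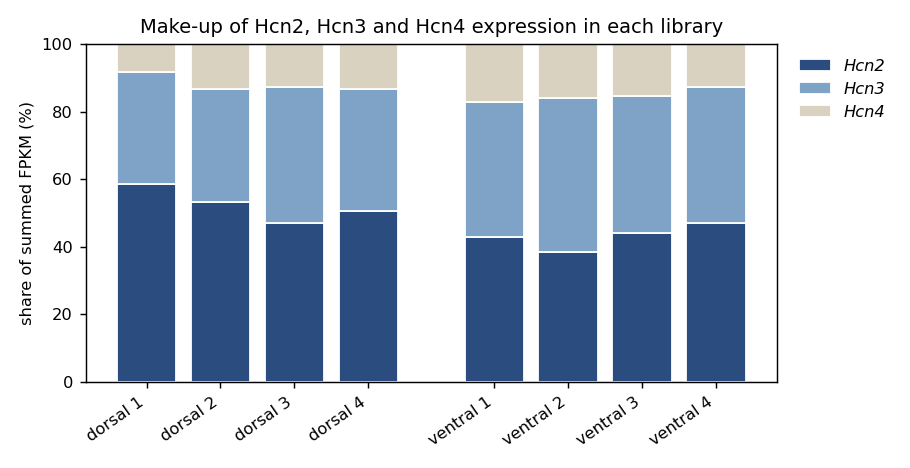
Share in percent of the summed FPKM of Hcn2, Hcn3 and Hcn4 (y axis, stacked bars from 0 to 100%) in each of the 8 libraries (x axis). Hcn2 takes 47.1% to 58.6% in the dorsal and 38.6% to 47.1% in the ventral libraries.

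The 6 ratios between pairs of the members were tested in the same way. The log2 ratio of Hcn2 to Hcn3 was 0.82, 0.67, 0.23 and 0.48 in dorsal libraries 1 to 4 and 0.11, -0.24, 0.12 and 0.22 in ventral libraries 1 to 4. The regions did not overlap, although dorsal library 3 and ventral library 4 nearly touched. The mean fell by 0.50 on the log2 scale from dorsal to ventral MEC, with an exact permutation p of 0.0286, the smallest possible, and 0.114 after Benjamini-Hochberg adjustment over the 6 pairs. No pair passed that adjustment.

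The ratio of Hcn2 to Pex5l sets a channel subunit against its accessory subunit. Its log2 value was between -4.63 and -4.56 in the dorsal libraries and between -5.22 and -4.62 in the ventral libraries, and 1 ventral library lay within the dorsal range. The mean difference was -0.26 (exact permutation p = 0.0571, adjusted 0.114). Without ventral library 2 it was -0.13, and with fragments in place of FPKM it was -0.22 (exact permutation p = 0.114 for each). The difference was -0.65 for Hcn2 to Hcn4 (exact permutation p = 0.0571, adjusted 0.114), where ranges overlapped. For Hcn3 and Hcn4 against Pex5l the mean differences were 0.24 and 0.40 (exact permutation p = 0.143, adjusted 0.171 for each). The ratio of Hcn3 to Hcn4 differed by -0.16 (exact permutation p = 0.429).

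Proteins other than TRIP8b bind HCN channels and set their number, place or gating. A list of 10 genes holds such proteins and Pex5, a relative of TRIP8b that is not known here as a channel partner. Of these, 7 were tested, and by edgeR 0 were called D>V and 0 V>D, with 1 at an unadjusted p under 0.05. Over all genes tested, 6.54% were called and 18.5% had such a p, so that 7 genes are too few to set the list apart from other genes. DESeq2 and limma also called 0. The median log2(V/D) of the 7 was 0.003, against 0.003 for all genes tested. The gene with the small p was Flna, which encodes filamin A, an actin-binding protein that gathers channels in the membrane. Its FPKM was 14.4, 16.5, 12.7 and 16.7 dorsally and 16.2, 18.9, 16.9 and 14.3 ventrally, with overlap, and its log2(V/D) of 0.25 (SE 0.076, edgeR adjusted p = 0.0487) stayed below the 20% threshold.

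The other tested partners had log2(V/D) values between -0.14 and 0.14. Nedd4l, a ubiquitin ligase that lowers channel number in the membrane, stood at 0.05 (26.4 ± 2.66 FPKM dorsally and 27.3 ± 1.52 ventrally). Vapa and Vapb, membrane proteins of the endoplasmic reticulum that raise HCN surface levels, stood at -0.14 and 0.003. Kctd3, which raises the surface level of HCN3 channels, stood at -0.09, and Magi2, a scaffold of the synapse, at -0.11. Pex5, the peroxisomal import receptor to which TRIP8b is related in sequence, stood at 0.14 at a mean FPKM of 3.99 dorsally and 4.35 ventrally. Mrvi1 and Lrmp encode membrane proteins that act on HCN4. Mrvi1 had 0.784 ± 0.192 FPKM dorsally and 0.483 ± 0.134 ventrally, below the filter, with a log2(V/D) of -0.39 in the fit without it (edgeR adjusted p = 0.240). Lrmp, with 0.387 and 0.182 FPKM, and Kcne2, a small subunit of HCN and potassium channels, with 0.138 and 0.0639 FPKM, had too few alignments to be tested.

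HCN channels read cAMP, and 5 genes for its synthesis and breakdown were called, in both directions. Of 32 listed genes 27 were tested, of which 2 were D>V, 3 were V>D and 22 were not called, against 6.54% called among all genes. A further count, of genes at an unadjusted p under 0.05, gave 13 of the 27, against 18.5% of all genes tested. The median log2(V/D) of the list was -0.002. The genes called were adenylyl cyclases, which make cAMP, and phosphodiesterases, which break it down, with called genes of each kind in each direction.

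Among the cyclases, 7 of 10 were tested. Adcy2 was higher dorsally, with 26.4 to 28.3 FPKM in the dorsal and 18.3 to 21.2 FPKM in the ventral libraries and a log2(V/D) of -0.44 (SE 0.067, edgeR adjusted p = 2.09e-04). Adcy5 was higher ventrally, with 7.82 to 8.66 FPKM dorsally and 10.4 to 11.4 FPKM ventrally and a log2(V/D) of 0.44 (SE 0.069, edgeR adjusted p = 2.34e-04). Neither gene overlapped between the regions. Adcy1, a cyclase activated by calcium and calmodulin and the most abundant of the 7, had a lower ventral mean (91.2 ± 1.10 against 78.4 ± 3.90 FPKM). Its log2(V/D) of -0.21 (SE 0.060, edgeR adjusted p = 0.0349) did not reach the 20% threshold. The summed FPKM of the 10 cyclases was 156.2 to 160.4 in the dorsal and 129.0 to 144.3 in the ventral libraries, and Adcy1 made up most of it. Of the 7 tested, 4 had a log2(V/D) below 0 and 3 above it, with a median of -0.056.

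Among the phosphodiesterases, 14 of 16 were tested. Pde8a, whose enzyme is specific for cAMP, was higher dorsally, with 3.87 to 5.29 FPKM against 2.28 to 3.22 FPKM and a log2(V/D) of -0.75 (SE 0.110, edgeR adjusted p = 1.23e-04). Pde1a and Pde11a, whose enzymes break down both cAMP and cGMP, were higher ventrally. Pde1a had 79.6 to 105.9 FPKM dorsally and 116.8 to 137.7 FPKM ventrally, with a log2(V/D) of 0.47 (SE 0.078, edgeR adjusted p = 4.59e-04). Pde11a was low, with 0.788 to 1.19 FPKM against 1.46 to 2.50 FPKM and a log2(V/D) of 1.003 (SE 0.194, edgeR adjusted p = 0.00190). In summed FPKM the 16 genes ran from 333.6 to 361.0 dorsally and from 368.7 to 377.6 ventrally. The mean sum was 347.1 dorsally and 374.1 ventrally, a smaller rise than that of Pde1a alone, from 93.3 to 128.5 FPKM. Of the 14 tested, 8 had a log2(V/D) below 0 and 6 above it, with a median of -0.055, so that the sum does not stand for the genes as a set. Of the 6 G protein alpha subunits that act on the cyclases, edgeR called 0 and 0 had an unadjusted p under 0.05, and their log2(V/D) values lay between -0.02 and 0.12.

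**Figure D4:**
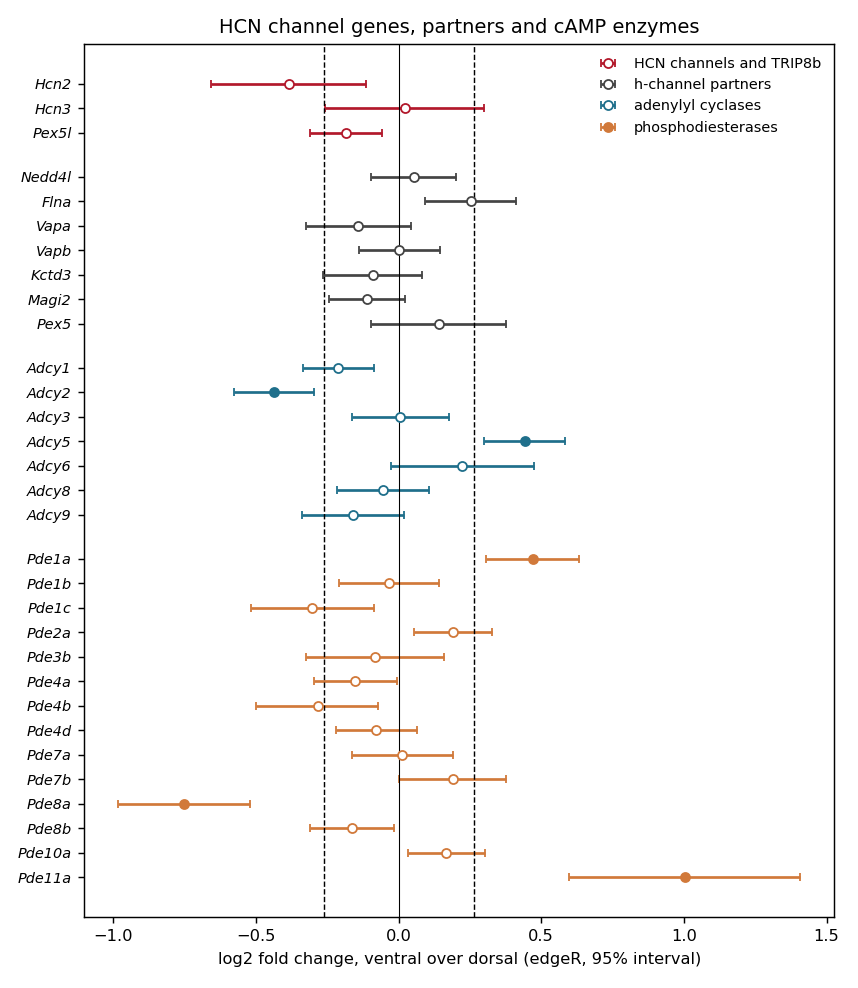
The edgeR log2(V/D) with its 95% interval (x axis) for the tested HCN channel and TRIP8b genes, the other binding proteins, the adenylyl cyclases and the phosphodiesterases (rows). Filled points were called, and dashed lines mark the 20% threshold, so that the 5 filled points are Adcy2, Adcy5, Pde1a, Pde8a and Pde11a.

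Markers of other cell types moved with region. All 10 mature oligodendrocyte markers were D>V, with a median log2(V/D) of -0.92 and a summed FPKM of 921.1 to 1221 in the dorsal and 502.1 to 665.5 in the ventral libraries. Mbp, a myelin protein, had 438.4 FPKM dorsally and 241.1 FPKM ventrally. Of 5 genes of parvalbumin interneurons, Pvalb and Syt2 were D>V (log2(V/D) -1.25 and -1.32), Tac1 was V>D (1.05) and 2 were not called, with a summed FPKM of 61.3 to 70.4 dorsally and 47.3 to 56.6 ventrally. The values of Hcn2 and Pex5l are lower ventrally. Mean summed FPKM was also lower ventrally for the oligodendrocyte, parvalbumin, astrocyte, endothelial and dentate granule cell lists. It was higher ventrally for the glutamatergic, GABAergic, microglial, choroid plexus and thalamus lists. Most single glutamatergic markers, given below, were lower ventrally. The part of these cell types in the values of Hcn2 and Pex5l was not tested.

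The summed levels of neuronal markers lay closer together. Of 6 genes of glutamatergic neurons 1 was called, Slc17a6 (log2(V/D) -0.57). The log2(V/D) was below 0 for 5 of the 6 and above 0 for 1, Camk2a, with a median of -0.145. The summed FPKM was 612.2 to 758.9 dorsally and 610.6 to 772.4 ventrally, and Camk2a made up most of it. Of 4 genes of GABAergic neurons edgeR called 0, with 3 at an unadjusted p under 0.05, and their sum was 192.6 to 197.2 against 200.3 to 206.8 FPKM. The glutamatergic markers Slc17a7 and Camk2a were abundant in both regions (107.1 and 388.4 FPKM dorsally, 105.1 and 426.4 FPKM ventrally). Of 6 astrocyte genes Gfap was V>D (0.28). EdgeR called 0 of 6 microglial and 0 of 4 endothelial genes, with 2 at an unadjusted p under 0.05 in each list. Of 5 choroid plexus genes 2 were tested and 0 called, with 0 at an unadjusted p under 0.05. Ttr and Folr1 were listed at 0 in ventral MEC and were near 0 in dorsal MEC too (0.0605 and 0.0212 FPKM, from 4 fragments and 1). Of 3 genes of dentate granule cells 1 was tested, Prox1, and was D>V (-0.35), with FPKM ranges that overlapped. Dsp and C1ql2 stayed below 1 FPKM and went in opposite directions. Dsp had 0.0919 FPKM dorsally and 0.0256 ventrally, and C1ql2 0.0492 and 0.215. Of 4 genes listed for thalamus Prkcd and Lhx2 were V>D (0.81 and 0.29). Lhx2 is also expressed in cortex and stood at 16.2 FPKM dorsally and 20.4 FPKM ventrally, so that it does not mark thalamic tissue here.

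For each member the 3 genes most like it over the 8 libraries were found by Pearson's r on log2(FPKM + 1), as a description over 8 points that share 2 regions and a common scaling. For Hcn2 they were Cckbr (r = 0.979), Ccdc32 (0.975) and Slc36a1 (0.975). Cckbr, a receptor of cholecystokinin and gastrin, had 17.0 FPKM dorsally and 12.9 ventrally and was called D>V (log2(V/D) -0.39, edgeR adjusted p = 0.0105). For Pex5l they were Itpr1 (0.969), Chek1 (0.964) and Gm12161 (0.956), and Itpr1, an intracellular calcium release channel, had 36.0 FPKM dorsally and 32.8 ventrally. For Hcn3 they were Gm5830 (0.945), Dtx3 (0.922) and Ndufv1 (0.918), and for Hcn4 Ormdl3 (0.960), Ndufv1 (0.934) and Nutf2-ps1 (0.908). Ndufv1, a subunit of mitochondrial complex I, stood in both lists, at 26.8 FPKM dorsally and 27.4 ventrally. Of these genes, Cckbr was the 1 that was called.

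The differences of Hcn2 and Pex5l were also recomputed with single libraries or settings changed. Leaving out each library in turn kept both genes lower ventrally, with a log2(V/D) from -0.48 to -0.28 for Hcn2 and from -0.21 to -0.16 for Pex5l. Under the regions named in the headers the values were -0.16 for Hcn2 (edgeR adjusted p = 0.946) and -0.07 for Pex5l (edgeR adjusted p = 0.954). With the 4 libraries for which headers and conditions name the same region, a choice made after seeing the data, they were -0.60 (edgeR adjusted p = 0.191) and -0.26 (edgeR adjusted p = 0.200).

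**Figure D5:**
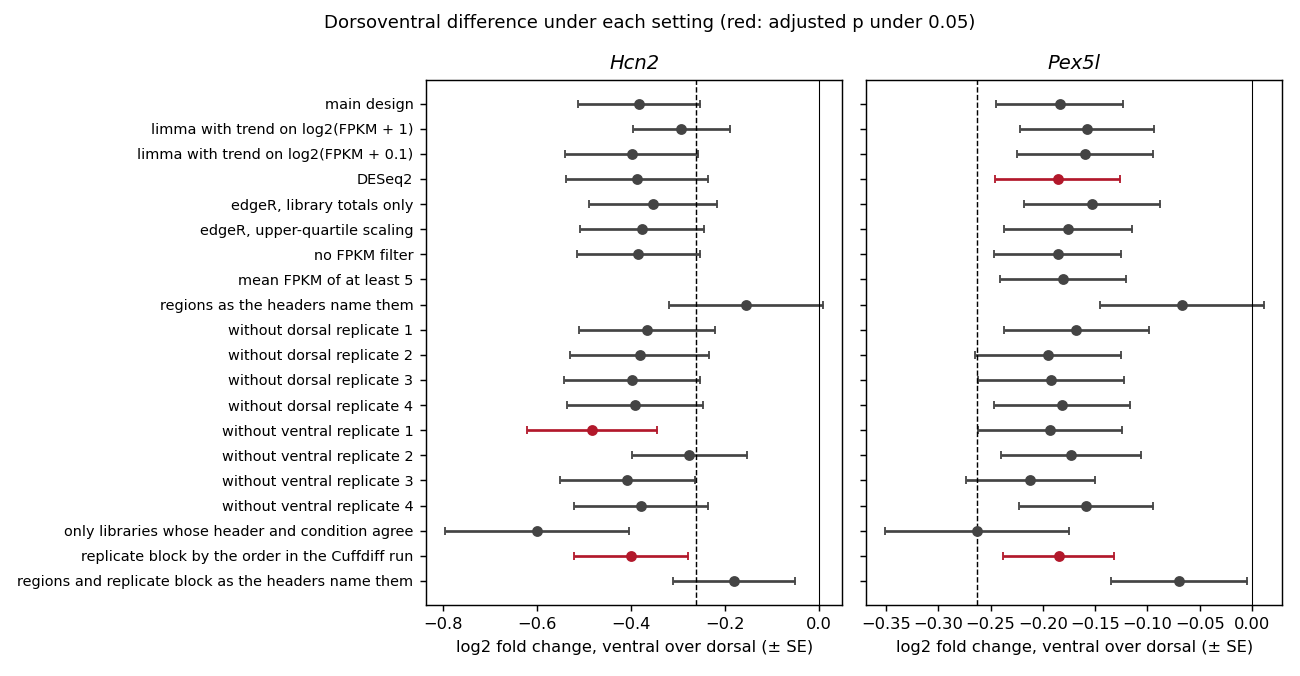
log2(V/D) ± SE (x axis) of Hcn2 and Pex5l under the main design and each alternative (rows, where a replicate is a library), with the 20% threshold as a dashed line and red points at an adjusted p under 0.05. Every point lies below 0, and the red points are Hcn2 without ventral library 1, Pex5l with DESeq2 and both genes with the block by run order.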

How the data were processed

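Total RNA of dorsal and ventral MEC was sequenced as paired-end fragments on Illumina HiSeq. The authors used CASAVA 1.8 and TopHat2 2.0.8 with Ensembl annotation on GRCm38, and Cuffdiff 2 at gene level. The deposited FPKM values came from the authors' Cuffdiff run, scaled between libraries, and the deposited read-group table also gives estimated counts, the fragments of a gene per library, which need not be whole (17.5% of values above 0) and were rounded. The authors' table of regional means, log2 ratios, p-values and q-values was not used, and neither were its calls. The labels give no batch.

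Genes with enough alignments for Cuffdiff (14989) and a mean FPKM of at least 1 (13674) were fitted with edgeR 4.0.16 (TMM scaling, robust quasi-likelihood) in R 4.3.3, with DESeq2 1.42.0 and limma 3.58.1 on log2(FPKM + 1) or log2(FPKM + 0.1) as alternatives. Others were scaling, filters, the fold threshold, the regions in the headers, leaving out each library and, added after seeing the data, blocks by library number. Shares and ratios were tested over the 70 arrangements of the libraries. Intervals on fold changes cover 95%, and coefficients of variation from counting cover counting error only. Python 3.11.15, NumPy 2.4.6, SciPy 1.17.1, pandas 2.3.3 and matplotlib 3.10.9 were used. Positions and sequences are those of GENCODE M21.

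The members and lists were chosen with earlier results of these data known. Named are the members, all genes of the partner list, cAMP genes that were called, marker genes that were called or define a list, and the 3 genes most like each member. Adcy1, Slc17a7, Camk2a and genes with no call that are given as examples were added after their values were seen. Magi2 has 3 identifiers and Pde4d 2 in the table, of which the main gene was used. 1 further gene of the channel family, which the partner rule would take, is not reported here, and neither the shares nor the partner counts include it.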

Additional observations from a re-analysis of the deposited data

Results flagged for a closer look

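Of 56 groups of 4 libraries screened for a library far from the others, 8 were flagged, where chance flags about 1 in 20, and several of the 8 share the same values. Dorsal library 1 had 0.422 FPKM of Hcn4, against 0.721 to 0.759 in the other dorsal libraries. The same library accounts for the flags on the Hcn4 share (8.21%, others 12.7% to 13.4%), on the log2 ratio of Hcn2 to Hcn4 (2.83, others 1.89 to 2.01) and on that of Hcn4 to Pex5l (-7.40, others -6.60 to -6.52). Dorsal library 2 had 0.278 FPKM of Kcne2, against 0.0850 to 0.0946 in the others, at 8 fragments. The Hcn3 share was 45.5% in ventral library 2, against 39.9% to 40.4% in the others. Adcy5 was at 8.66 FPKM in dorsal library 4, against 7.82 to 7.87, and Pde11a at 2.50 FPKM in ventral library 1, against 1.46 to 1.61.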

How the results depend on the processing

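Depth limits Hcn4 most, at 347 fragments in all 8 libraries, and a minimum mean FPKM of 5 left no value for Hcn2, Hcn3 or Hcn4. Leaving out each library in turn gave log2(V/D) values from -0.484 to -0.276 for Hcn2, called without ventral library 1 (adjusted p = 0.0467, edgeR), -0.037 to 0.140 for Hcn3, 0.070 to 0.357 for Hcn4 and -0.212 to -0.159 for Pex5l. It gave 666 to 1065 called genes, 0 to 1 partners, with Flna called without ventral library 4, 5 to 7 cAMP genes, a difference in the Hcn2 share of -10.9 to -7.08 points and in the log2 ratio of Hcn2 to Pex5l of -0.333 to -0.132.

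Hcn3 reversed in 7 settings, to -0.181 under the headers' regions and to -0.173 with the libraries on which header and condition agree. The other reversals of Hcn3 were with regions and replicate block from the headers and in fits that left out a library. Without dorsal library 1, 2 or 4, or without ventral library 1, its log2(V/D) lay between -0.037 and -0.008. Hcn4 reversed to -0.163 under the headers. The number of genes called moved to 491 and 494 with limma at a constant of 1 and 0.1, 594 at a mean FPKM of at least 5, where fewer genes are tested, 2 under the headers (716 at an unadjusted p under 0.05) and 265 with the agreeing libraries. Partners called became 1 with the adjusted p alone and 1 with library totals only, Flna in both. cAMP genes called became 3 at a mean FPKM of at least 5, 0 under the headers and 2 with the agreeing libraries. The causes were not tested. With library totals only, 44.6% of calls were D>V, against 53.4%.

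Dorsal and ventral pools came from the same groups of mice, but the labels carry no number that ties them, so no pairing was used. Libraries with the same place in the Cuffdiff run correlated at 0.139, 0.074, 0.123 and -0.005 in their deviations from the region means across genes. Dorsal and ventral libraries with different places were not compared in this way, so that the values cannot tell whether the order pairs them. A replicate block by that order, chosen after seeing the data, gave 1218 called genes, 7 cAMP genes and 0 partners, with log2(V/D) -0.400 for Hcn2 (called, edgeR adjusted p = 0.0249) and -0.185 for Pex5l (edgeR adjusted p = 0.0175, below the fold threshold). With both the regions and the replicate block taken from the headers, whose same-numbered columns lie in the same Cuffdiff condition and correlated at 0.141 to 0.202, 19 genes and 0 cAMP genes were called, and the log2(V/D) was -0.181 for Hcn2, -0.173 for Hcn3, -0.124 for Hcn4 and -0.070 for Pex5l.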
